A study of Mus musculus with 33 samples.

Results

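The enzymes and regulators of fatty acid synthesis were followed here through 33 mouse liver RNA-seq libraries. The 10 genes were chosen by symbol for their place in the pathway, not by a measured threshold: Acly, Me1, Acaca, Acacb, Fasn, Elovl6, Scd1, Thrsp, Srebf1 and Mlxipl. All 10 were among the 19169 genes of the count table, and all 10 passed the low-count filter that left 14934 genes for testing. WT control (10 libraries, 7 female) came from wild-type mice fed control chow with placebo, and WT ASK1i (8 libraries, 4 female) from wild-type mice whose chow carried the ASK1 inhibitor GS-444217. KI control (5 libraries, 1 female) and KI ASK1i (10 libraries, 5 female) came from Nlrp3A350V/+CreT knock-in mice on the same diets. The diets lasted 6 weeks. In this line Cre induced by tamoxifen switches on 1 mutant copy of Nlrp3, whose protein senses danger signals and assembles an inflammasome. The labels give no age, and they do not say where Cre acts or whether the wild-type mice also received tamoxifen. Whether every library had its own mouse is not stated either, so a p-value here measures the spread between libraries, which may be technical.

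Fatty acid synthesis in the liver turns surplus carbohydrate into saturated fat. Citrate leaves the mitochondrion and is split by ATP citrate lyase (Acly) into acetyl-CoA, the acetyl-CoA carboxylases (Acaca, Acacb) make malonyl-CoA, and fatty acid synthase (Fasn) builds palmitate from both with NADPH, part of which comes from malic enzyme (Me1). Elovl6 lengthens palmitate to stearate, and Scd1 introduces the double bond that gives oleate. The pathway is classically controlled by transcription: the protein SREBP-1c, encoded by Srebf1, answers to insulin, and ChREBP, encoded by Mlxipl, answers to glucose.

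Total counts ran from 28099685 to 40008114 per library. Nlrp3, measured as a check on the genotype labels, lay between 7.87 and 15.6 CPM (counts scaled to normalised library sizes) in KI control and between 1.62 and 4.96 CPM in WT control. The library labelled KI ASK1i replicate 5 had 2.10 CPM, below every WT ASK1i library, and stood among the WT libraries on the first principal component of all genes, so the main KI ASK1i results are given with and without it. Title sets (numbered, or numbered with a P) were a term of the model. No L code of the titles held both WT control and KI control, so within the control chow libraries genotype and L code cannot be told apart. A fit with the L code as a term reaches this contrast only through the ASK1i libraries, which share L codes with both control groups. Hepatocyte markers were abundant in every library. Their summed level was 118200 to 145100 CPM in WT control and 51330 to 74330 CPM in KI control, and the neutrophil markers summed to 6.36 to 24.3 CPM against 729 to 3869 CPM. Among the hepatocyte markers Alb reached 4256238 counts in a library and the next highest, Fgb, at most 500506, so the sum leans on Alb.

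Upstream sequence was taken from RefSeq (build GRCm38.p6), which held 9 of the 10 genes (Scd1 was not among them). The 250 bases before 1 start each of Me1, Fasn and Mlxipl are shown (the outermost of the 2 listed for Me1 and for Mlxipl). These are some of the genes that were lower in KI livers on both diets. The windows of Acacb (a CCAAT box from -87 to -83) and Elovl6 (no match), also lower on both diets, are not shown. Capitals mark matches, on either strand, to the CCAAT box (CCAAT), the GC box (GGGCGG) or the E-box (CACGTG), and adjoining matches run together.
Me1, chr9:86695915-86696164, minus strand: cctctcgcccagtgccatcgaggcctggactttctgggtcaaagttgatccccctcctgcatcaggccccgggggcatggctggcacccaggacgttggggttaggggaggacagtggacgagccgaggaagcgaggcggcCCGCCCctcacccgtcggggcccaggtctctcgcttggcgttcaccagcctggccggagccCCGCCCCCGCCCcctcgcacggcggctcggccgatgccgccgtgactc
Fasn, chr11:120824548-120824797, minus strand: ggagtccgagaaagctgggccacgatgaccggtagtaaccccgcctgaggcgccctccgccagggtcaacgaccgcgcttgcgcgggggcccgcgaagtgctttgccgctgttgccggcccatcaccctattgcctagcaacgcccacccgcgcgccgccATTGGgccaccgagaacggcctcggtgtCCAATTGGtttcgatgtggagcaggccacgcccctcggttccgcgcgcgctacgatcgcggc
Mlxipl, chr5:135089640-135089889, plus strand: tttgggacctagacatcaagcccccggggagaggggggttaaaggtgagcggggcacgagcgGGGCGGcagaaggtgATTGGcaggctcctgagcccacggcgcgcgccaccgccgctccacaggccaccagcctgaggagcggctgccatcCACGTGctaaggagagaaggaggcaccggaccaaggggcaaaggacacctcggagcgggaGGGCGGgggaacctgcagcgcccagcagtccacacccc
Over all listed starts, a CCAAT box lay in the windows of 6 of the 9 genes and in 33.8% of the 32851 mouse windows of the same length. The counts are by gene and the percentages by single window. A gene with several starts has several windows, so the 2 are not on the same scale. A GC box lay in those of 4 genes and in 32.7% of all windows. The E-box, whose letters ChREBP and the USF factors can bind as part of longer sites, was found for 1 gene, Mlxipl itself, from -98 to -93 relative to the start, and in 6.02% of all windows. The core TCACCCCAC, a form of the sterol regulatory element, was in none of the 9 and in 0.496% of all windows. A match describes the letters only.

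On control chow, 5 of the 10 genes were lower in KI than in WT livers and none was higher. The 5 were malic enzyme, the carboxylase Acacb, Fasn, the elongase Elovl6 and the ChREBP gene Mlxipl, with fitted falls from 0.62 to 1.63 on the log2 scale. The ATP citrate lyase, the other carboxylase, the desaturase, Thrsp and Srebf1 were not called. Across the transcriptome this genotype contrast was broad: 28.9% of the genes tested were lower and 27.8% higher (edgeR's quasi-likelihood test, Benjamini-Hochberg adjusted over all genes, threshold 0.05). The median log2 difference was -0.32 for the 10 genes and -0.03 for all genes. In bulk tissue, fewer hepatocytes and less RNA of a gene per hepatocyte cannot be told apart.

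**Figure D1:**
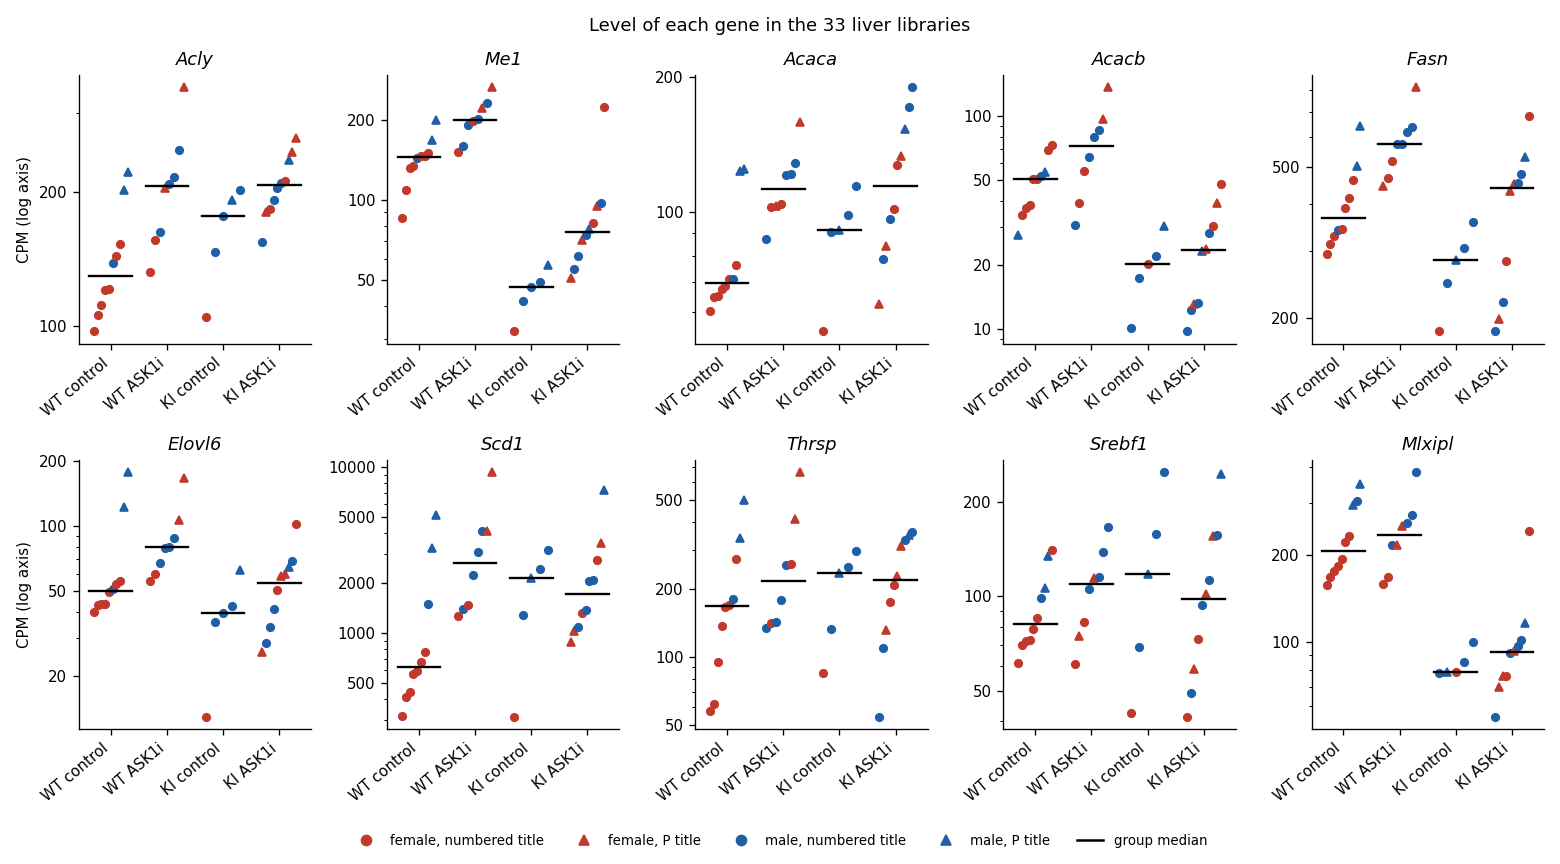
Level of each gene in CPM (log axis) in every library of the 4 groups, with each group's points set side by side in order of value, colour for sex, shape for title set and a bar at the group median. The KI control points of Me1 (32.1 to 56.7 CPM) and Mlxipl (77.9 to 99.7 CPM) lie below all WT control points, while those of Acly, Scd1, Thrsp and Srebf1 overlap them.

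Acly and Me1 supply the carbon and the reducing power. Acly in WT control had a lowest, median and highest level of 96.97, 129.5 and 221.8 CPM. In KI control replicates 1 to 4 and 1P it was 104.7, 146, 176, 201.6 and 191.3 CPM. The groups overlapped throughout, and the fitted log2 difference was 0.11 (SE 0.15, 95% interval -0.19 to 0.42, adjusted p = 0.540). Me1 (chromosome 9, 86581363 to 86695914 in the table's mm10 coordinates) showed a clear gap. In WT control its lowest, median and highest levels were 85.5, 144.3 and 199.1 CPM, and in the KI control libraries, in the same order, it was 32.1, 47.01, 41.7, 49.01 and 56.7 CPM. All 5 KI libraries lay below all 10 WT libraries. Groups that did not overlap, in either direction, were found for 29.1% of all genes. The log2 fold change of Me1 was -1.63 (SE 0.27, edgeR adjusted p = 9.14e-06), a 3.09-fold lower level, and its call held with each of the 33 libraries left out and in each alternative fit.

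The carboxylases are products of separate genes. Acaca is the cytosolic enzyme whose malonyl-CoA feeds Fasn, while the Acacb product sits on the mitochondrial surface, where its malonyl-CoA restrains fatty acid import for oxidation. Acaca was 60.4, 69.8 and 124.8 CPM (lowest, median, highest) in WT control and 54.4, 90.3, 98.6, 114.2 and 91.4 CPM in KI control replicates 1 to 4 and 1P, with a log2 difference of -0.01 (SE 0.20, interval -0.41 to 0.39, adjusted p = 0.958). Acacb was 27.6, 50.7 and 72.7 CPM in WT control and 20.2, 22.02, 17.2, 10.04 and 30.5 CPM in KI control. For Acacb, 4 of the 5 KI libraries were below every WT library, and the exception was replicate 1P. Its log2 fold change was -1.11 (SE 0.35, edgeR adjusted p = 0.00815). The Acacb call was lost with the L code in place of the title set, where the fold change was -0.38 (adjusted p = 0.531), and in males alone (-1.04, adjusted p = 0.0707) and females alone (-1.29, adjusted p = 0.186).

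Counted within each library, the ratio of Acacb to Acaca describes how the pair parted. The ratio was chosen after the values were seen and is given with no test, and as the transcripts differ in length it does not compare their levels. In WT control it was 0.224 at the lowest, 0.644 at the median and 1.204 at the highest, and in KI control 0.0879, 0.244 and 0.371. On the ASK1i diet the same values were 0.239, 0.683 and 0.939 in WT and 0.0647, 0.187 and 0.376 in KI. Leaving out KI ASK1i replicate 5, the KI values on this diet were 0.0647, 0.168 and 0.300. No KI library on either diet reached the WT median of its diet, and the ranges overlapped: 2 of 5 KI control and 6 of 10 KI ASK1i libraries were below all WT libraries of their diet. With numbered titles only, the 4 KI control libraries were all below the 8 of WT control. The mean log2 ratio was -1.498 in KI minus WT without the inhibitor and -1.639 with it (-1.751 without KI ASK1i replicate 5) (SDs 0.69 and 0.84, then 0.66 and 0.79, for WT and KI).

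**Figure D2:**
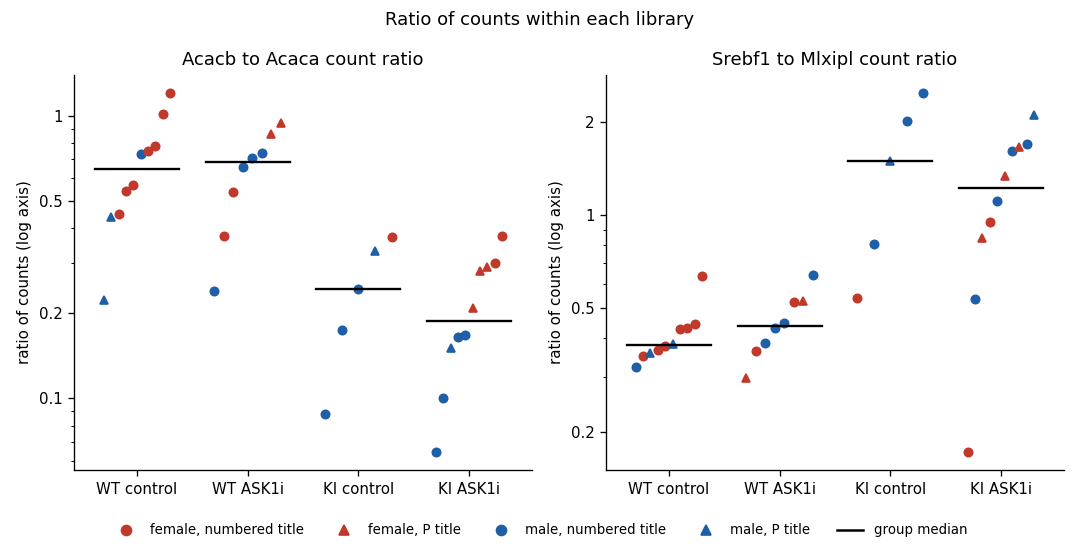
Ratio of counts within each library (log axis) for Acacb to Acaca and for Srebf1 to Mlxipl, by group, with bars at the group medians. The median Acacb to Acaca ratio is 0.644 in WT control and 0.244 in KI control, and the median Srebf1 to Mlxipl ratio is 0.381 and 1.503.

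Fasn assembles palmitate, and Elovl6 takes it to stearate. Fasn was 295.3, 366.7 and 640.6 CPM (lowest, median, highest) in WT control and 184.9, 247.3, 305.5, 358.2 and 284 CPM in KI control replicates 1 to 4 and 1P. The groups overlapped, with 3 of 5 KI libraries below all WT libraries and all 5 below the WT mean, and the log2 fold change was -0.62 (SE 0.25, edgeR adjusted p = 0.0361). The fall of Fasn was not a stable call: it was lost without KI control replicate 1, 2 or 1P or without WT control replicate 1P, 2P or 7, where it was -0.60 to -0.49 with an adjusted p of 0.0501 to 0.139. With numbered titles only it was -0.37 (adjusted p = 0.307). Without KI ASK1i replicate 5, which is in neither group but enters the shared fit, it was -0.68 (adjusted p = 0.00685). Elovl6 was 39.8, 50.01 and 177 CPM in WT control and 13.02, 35.8, 42.3, 39.6 and 62.2 CPM in KI control, where replicate 1, the only female of its group, was the lowest. Its log2 fold change was -0.90 (SE 0.32, adjusted p = 0.0163). Without KI control replicate 1 it was -0.64 (adjusted p = 0.0989), without WT control replicate 2P -0.69 (adjusted p = 0.0640), and with numbered titles only -0.57 (adjusted p = 0.169).

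Scd1, the desaturase, had the widest spread among the 10 within WT control, with a highest value 16.2 times the lowest (319.1, 631 and 5166 CPM for lowest, median and highest). In KI control replicates 1 to 4 and 1P it was 314.8, 3166, 2432, 1283 and 2140 CPM. The log2 difference was 0.45 (SE 0.44, interval -0.45 to 1.34, adjusted p = 0.397). Its counts were whole numbers (within 1e-06 of a count) in 0 of 33 libraries, against 33 of 33 for each of the other 9 genes, so part of the Scd1 reads was shared out among similar genes. Thrsp, a lipogenic protein that rises with carbohydrate feeding and thyroid hormone, ranged from 57.5 to 500.6 CPM in WT control and from 84.7 to 295.3 CPM in KI control (log2 difference -0.01, SE 0.41, interval -0.85 to 0.84, adjusted p = 0.989).

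The transcription factor genes parted in the same libraries. Mlxipl was 157.3, 206.5 and 350.3 CPM (lowest, median, highest) in WT control and 78.7, 85.3, 77.9, 99.7 and 78.6 CPM in KI control replicates 1 to 4 and 1P. No KI library overlapped the WT range, and the KI values had an SD of only 9.27 CPM around a mean of 84.03. The log2 fold change was -1.55 (SE 0.26, edgeR adjusted p = 1.42e-05), or 2.93-fold lower. That call held with each library left out and was lost in females alone, where there is 1 KI library (-1.24, adjusted p = 0.0983). Srebf1 was 61.5, 81.8 and 140.2 CPM in WT control and 42.6, 69.1, 157.6, 248.5 and 118.2 CPM in KI control. Its KI values reached both below and above the WT range, and the log2 difference was 0.04 (SE 0.32, interval -0.62 to 0.70, adjusted p = 0.928). The count of Srebf1 does not separate the transcripts of SREBP-1a and SREBP-1c. As a description chosen after the values were seen, the Srebf1 to Mlxipl count ratio was 0.324, 0.381 and 0.637 in WT control and 0.542, 1.503 and 2.49 in KI control (lowest, median, highest), with 4 of 5 KI libraries above all WT libraries.

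On the ASK1i diet the genes called in the genotype contrast were the same 5, all lower in KI, beside 59.1% of all genes called (28.8% lower and 30.3% higher). This contrast uses other libraries than the one on control chow. Me1 was 151.6, 199.5 and 265 CPM (lowest, median, highest) in WT ASK1i and 50.9, 75.9 and 223.4 CPM in KI ASK1i, with 9 of 10 KI libraries below all WT libraries. None of the 10 genes separated the groups fully here, as 6.27% of all genes did. Mlxipl was 157.8, 233 and 384.4 CPM against 55.2, 92.5 and 240.8 CPM, again with 9 of 10 below. The library above the rest in both was KI ASK1i replicate 5, the one with the low Nlrp3 level.

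The log2 fold change on this diet was -1.19 for Me1 (SE 0.21, edgeR adjusted p = 1.34e-05) and -1.20 for Mlxipl (SE 0.21, adjusted p = 1.29e-05). Without KI ASK1i replicate 5 these were -1.505 (SE 0.13, adjusted p = 1.99e-11) and -1.525 (SE 0.13, adjusted p = 9.37e-12). Acacb was 30.8, 72.1 and 136.8 CPM in WT ASK1i and 9.71, 23.5 and 48.02 CPM in KI ASK1i. It had the largest fall of the 10 here, -1.66 (SE 0.28, adjusted p = 7.49e-06), and -1.83 (adjusted p = 1.02e-06) without replicate 5. Its ranges overlapped, and 8 of 10 KI libraries were below all WT libraries.

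Fasn ran from 446.7 through a median of 576.1 to 812.9 CPM in WT ASK1i and from 184.5 through 441.5 to 682.6 CPM in KI ASK1i. Its log2 fold change was -0.59 (SE 0.20, edgeR adjusted p = 0.0122), and -0.79 (adjusted p = 0.000250) without KI ASK1i replicate 5. Elovl6 ran from 55.3 through 79.3 to 165.8 CPM against 25.9, 54.2 and 102.3 CPM, with a fold change of -0.70 (SE 0.25, adjusted p = 0.0163) that became -0.995 (adjusted p = 6.11e-05) without KI ASK1i replicate 5 and -0.56 (adjusted p = 0.0621) without WT ASK1i replicate 2P. With numbered titles only neither was called (Fasn -0.55, adjusted p = 0.0576, and Elovl6 -0.37, adjusted p = 0.258). The other 5 were not called: Acly -0.05 (SE 0.12, interval -0.30 to 0.20), Acaca 0.0017 (SE 0.16, interval -0.33 to 0.33), Scd1 -0.61 (SE 0.36, interval -1.34 to 0.11), Thrsp -0.29 (SE 0.34) and Srebf1 -0.08 (SE 0.26). Without KI ASK1i replicate 5 these 5 were at -0.10, -0.06, -0.66, -0.32 and 0.0075, none called. Scd1 was called lower without KI ASK1i replicate 4 (-0.92, adjusted p = 0.0184), and Scd1 and Thrsp were with the L code in place of the title set (-1.49, adjusted p = 0.00425, and -1.08, adjusted p = 0.0171).

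**Figure D3:**
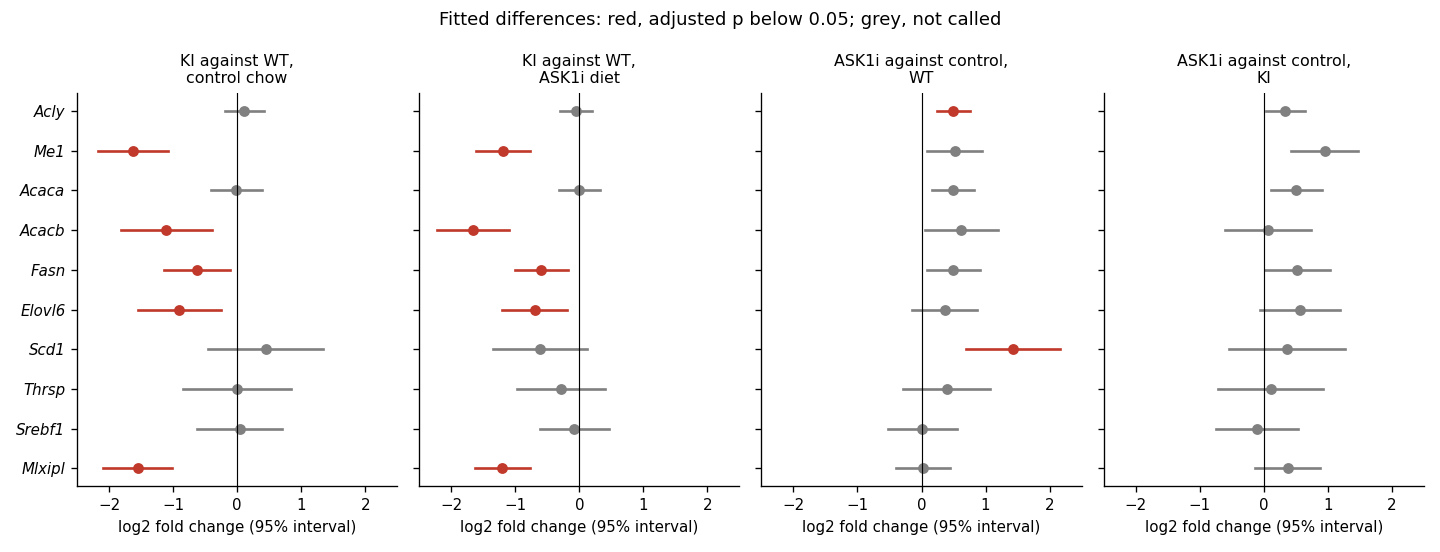
Fitted log2 fold change of each gene (points) with its 95% interval (lines) in the 4 contrasts, red where the adjusted p is below 0.05. The same 5 genes are red and left of 0 in both genotype contrasts, from -0.62 to -1.63 on control chow and from -0.59 to -1.66 on the ASK1i diet, and Acly and Scd1 are red in the diet contrast of WT.

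In WT livers the inhibitor diet went with higher Acly and Scd1, beside 1.4% of all genes called (1.13% higher and 0.268% lower). All 10 fitted differences were above 0, with a median log2 difference of 0.50 against -0.0017 over all genes, and 8 of the 10 were not called. Acly rose from a median of 129.5 to 205.7 CPM (range 132 to 343.9 in WT ASK1i), with 7 of 8 ASK1i libraries above the control mean, and its fold change was 0.50 (SE 0.12, edgeR adjusted p = 0.0346). Scd1 rose from a median of 631 to 2664 CPM (range 1270 to 9318), also with 7 of 8 above the control mean, and its fold change was 1.43 (SE 0.36, adjusted p = 0.0378). The ranges of control and ASK1i overlapped for all 10, and did not for 0.261% of all genes. The values of those not called were 0.50 for Acaca (SE 0.16, adjusted p = 0.129), 0.62 for Acacb (SE 0.28, adjusted p = 0.306), 0.50 for Fasn (SE 0.20, adjusted p = 0.251), 0.52 for Me1 (SE 0.21, adjusted p = 0.244), 0.37 for Elovl6 (SE 0.25), 0.39 for Thrsp (SE 0.34), 0.01 for Srebf1 (SE 0.26) and 0.03 for Mlxipl (SE 0.21).

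Both WT diet calls sat close to the threshold. The call of Acly was lost on leaving out WT control replicate 1, 2, 3, 4, 5, 8, 1P or 2P or WT ASK1i replicate 2, 3, 7 or 2P, with fold changes of 0.38 to 0.51 and adjusted p of 0.0509 to 0.158. That of Scd1 was lost without WT control replicate 1, 3, 4, 5, 6 or 1P or WT ASK1i replicate 2, 3, 5, 1P or 2P, with 1.13 to 1.47 and 0.053 to 0.161. Me1 was called without KI ASK1i replicate 5 (0.48, adjusted p = 0.0346). When only the WT libraries were fitted, 5 of the 10 were called: Acly 0.47 (adjusted p = 0.0265), Acaca 0.50 (0.00301), Fasn 0.47 (0.0218), Scd1 1.35 (0.00388) and Me1 0.47 (0.0162). That fit also called a larger share of all genes than the 1.4% of the main fit, so the rise in calls was not particular to these genes. With the L code, the header prefix or the replicate number in place of the title set, and with numbered titles only, none of the 10 was called.

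Sex and title set were spread unevenly over the WT groups. WT control held 7 females, all with numbered titles, and 2 of its 3 males carried P titles. In WT ASK1i the 2 P libraries were female and the 4 males had numbered titles. Across the model P titles were higher than numbered ones for Acly (log2 0.49, edgeR adjusted p = 0.00224), Scd1 (1.48, adjusted p = 0.00149), Elovl6 (0.79, adjusted p = 0.00908) and Thrsp (0.98, adjusted p = 0.0154), beside 2109 of 14934 genes called, a comparison chosen after the values were seen. Within WT control both P libraries were above all 8 numbered libraries for 7 of the 10 genes, as for 12.3% of all genes. Their part in the diet result was not tested beyond the fits above.

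**Figure D4:**
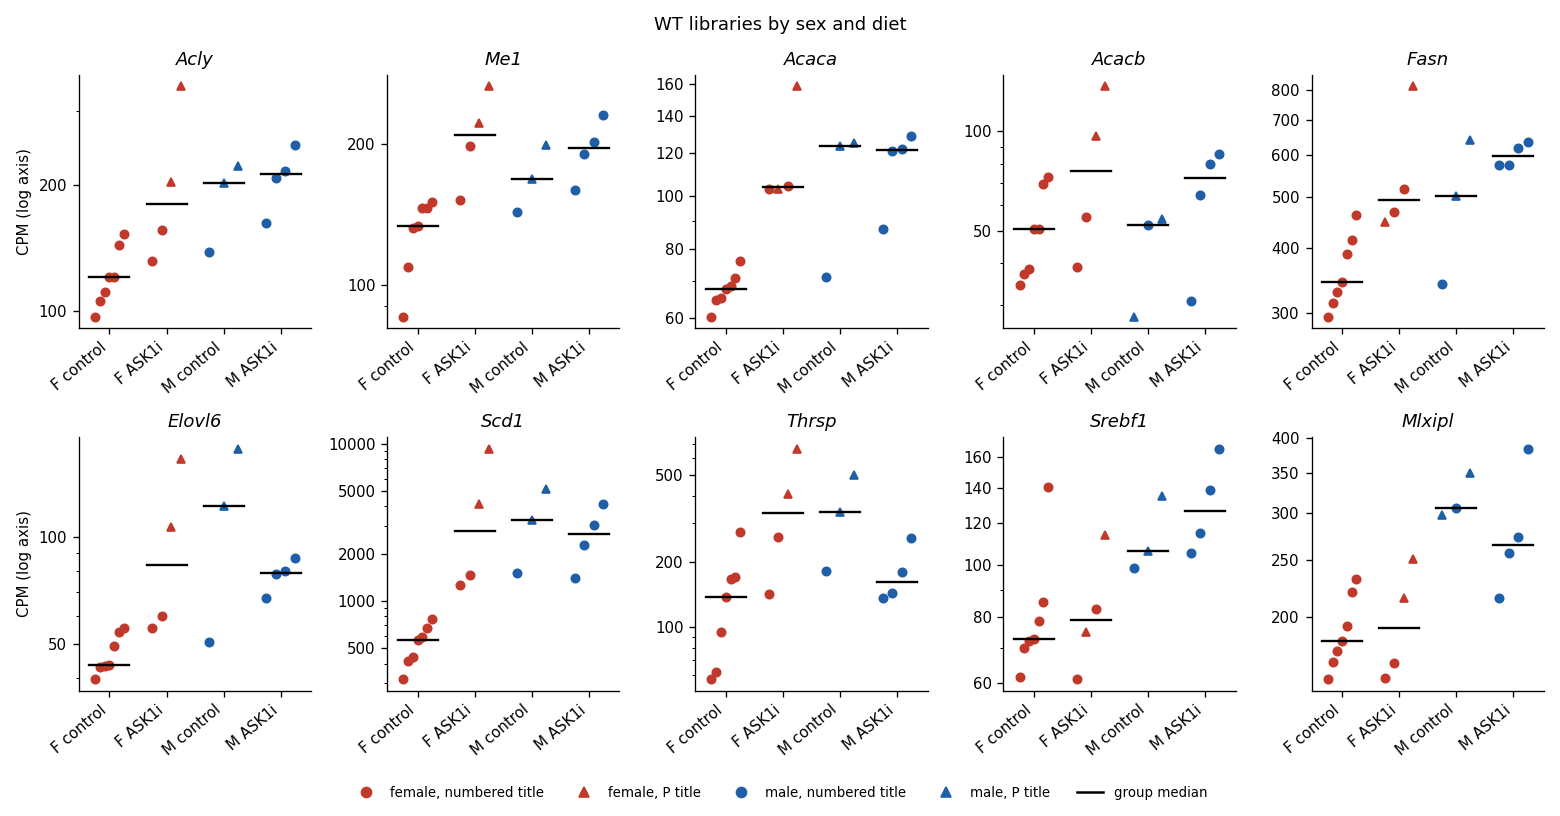
WT libraries only, each gene's CPM (log axis) by sex and diet, with triangles for P titles and bars at the medians. Female ASK1i points of Acaca, Scd1 and Me1 lie above all female control points (Scd1 1270 to 9318 against 319.1 to 773.7 CPM), and no gene separates the diets in males (Scd1 1397 to 4126 against 1510 to 5166 CPM). P titles are on ASK1i only in females and on control chow only in males.

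Split by sex, the levels show where the diet groups separated, but title set was not balanced within a sex. P titles were on ASK1i only among WT females (2 of 4) and on control chow only among WT males (2 of 3). In WT females 6.6% of all genes did not overlap between the diets, and in males 7.8%. In females Scd1 was 319.1 to 773.7 CPM on control chow (n = 7) and 1270 to 9318 CPM on ASK1i (n = 4). Acaca was 60.4 to 76.3 against 102.9 to 158.4 CPM, and Me1 85.5 to 150.3 against 151.6 to 265 CPM. The diets did not overlap for these 3 genes in females. As all 7 female controls had numbered titles, this necessarily holds for the 2 numbered female ASK1i libraries as well. These had Scd1 at 1270 and 1473 CPM, Acaca at 102.9 and 104.5 CPM and Me1 at 151.6 and 197.2 CPM. With numbered titles only, Fasn separated too, giving 4 of the 10 genes, beside 12.4% of all genes. In males (n = 3 and 4) the diets overlapped for all 10, as with Scd1 at 1510 to 5166 against 1397 to 4126 CPM, and the 2 highest Scd1 controls were the P libraries. The difference in mean log2 CPM was above 0 for 6 of the 10 genes in males and for all 10 in females (Scd1 -0.23 and 2.49). Among numbered titles there is 1 male control. It was below all 4 male ASK1i libraries for 6 of the 10 genes (Acly, Acaca, Fasn, Elovl6, Me1 and Srebf1), as for 20.5% of all genes, a count that rests on that single library. The WT libraries were also fitted with a diet term for each sex and a term for title set. Scd1 was called in females (1.51, SE 0.35, edgeR adjusted p = 0.0453), beside 1.51% of 13708 genes, and Acaca was 0.52 (adjusted p = 0.0604). None of the 10 was called in males, where 0.0292% of genes were. The male values were 1.14 for Scd1 (SE 0.45) and 0.48 for Acaca (SE 0.18), below those in females. Acly was 0.71 (SE 0.22) in males and 0.30 in females, and Fasn 0.65 (SE 0.23) and 0.36. The difference between the sexes was not called for any of the 10 or any other gene: it was 0.37 for Scd1 (SE 0.64, adjusted p = 0.932) and 0.04 for Acaca (SE 0.25, adjusted p = 0.984). The Scd1 call in females was lost with numbered titles only (1.34, adjusted p = 0.142). Of the 18 WT libraries left out in turn it was kept without WT ASK1i replicate 2 or 7 or WT control replicate 2 or 7 and lost without each of the other 14 (1.34 to 1.69, adjusted p 0.0522 to 0.180).

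In KI livers none of the 10 was called between diets, beside 0.0536% of all genes called (8 genes, with 1539 at an unadjusted p under 0.05 and 37 by DESeq2). Me1 had the largest value, 0.95 (SE 0.26, interval 0.42 to 1.48, edgeR adjusted p = 0.330), with medians of 47.01 and 75.9 CPM, and 8 of 10 ASK1i libraries lay above all 5 controls. None of the 10 separated the diets fully in KI, and 0.0937% of all genes did. Without KI ASK1i replicate 5 it was 0.70 (adjusted p = 0.0921). The fitted differences of the other 9 ran from -0.10 for Srebf1 (SE 0.31) to 0.57 for Elovl6 (SE 0.31), with Fasn at 0.52 (SE 0.25), Acaca at 0.51 (SE 0.19), Mlxipl at 0.37 (SE 0.25) and Scd1 at 0.36 (SE 0.44). Without KI ASK1i replicate 5 none of the 10 was called either, with Elovl6 at 0.34, Fasn at 0.36, Mlxipl at 0.08, Acaca at 0.46, Scd1 at 0.33, Acacb at -0.07 (0.07 with it) and Srebf1 at -0.03. The test of whether the diet difference itself differed by genotype called none of the 10 and 0% of all genes (0 by edgeR, with 1251 at an unadjusted p under 0.05, 16 by DESeq2 and 2 by limma-voom). The value furthest from 0 was -1.06 for Scd1 (SE 0.56, interval -2.21 to 0.08, adjusted p = 0.631), and -1.09 (adjusted p = 0.551) without that library. Me1 was at 0.43 with it and 0.22 without it, and Mlxipl at 0.35 and 0.09. A call in WT and not in KI is thus not shown to be a difference between them.

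Between the sexes, across all 4 groups, none of the 10 was called, beside 1.49% of all genes called. Scd1 was at -1.01 in females relative to males (SE 0.28, edgeR adjusted p = 0.0613), Srebf1 by -0.72 (SE 0.21, adjusted p = 0.0737) and Acaca by -0.42 (SE 0.12, adjusted p = 0.0868). These 3 are close to the threshold and crossed it when single libraries were left out. Scd1 was called without KI ASK1i replicate 1, 4 or 5 or WT ASK1i replicate 7 or 2P (-1.22 to -1.04), Srebf1 without KI ASK1i replicate 1 or 1P or WT control replicate 7 (-0.80 to -0.77), and Acaca without KI ASK1i replicate 1 or 5 or WT ASK1i replicate 2P (-0.47 to -0.46). Mlxipl was -0.28 (SE 0.16, adjusted p = 0.437) with all libraries and -0.47 (adjusted p = 0.00460) without KI ASK1i replicate 5. In the WT libraries alone it was called, at -0.62 (edgeR adjusted p = 0.00342), with Scd1 at -1.004 (adjusted p = 0.0209) and Elovl6 at -0.39 (adjusted p = 0.0320). That fit called 907 of 13708 genes. WT control females had 157.3 to 232.3 CPM of Mlxipl and males 296.9 to 350.3 CPM. All 7 of those females had numbered titles, and 2 of the 3 males had P titles. The sexes overlapped in WT ASK1i (157.8 to 250.7 CPM in females, 215.1 to 384.4 in males). They also overlapped in KI ASK1i (69.9 to 240.8 and 55.2 to 116.2 CPM). The share of all genes that parted the sexes in WT control is not given here.

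The genes around the pathway were read from 6 lists, whose counts stand beside 28.9% of all genes lower and 27.8% higher on control chow, 28.8% and 30.3% on the inhibitor diet, and 1.13% higher with the diet in WT. The supply list holds 11 genes of citrate export, acetyl-CoA and NADPH. On control chow 5 were lower and 3 higher in KI, and the 2 NADPH-forming enzymes of the pentose phosphate route moved opposite to Me1: G6pdx was 2.75 (SE 0.29, edgeR adjusted p = 1.09e-08) and Pgd 1.22 (SE 0.15). G6pdx lay between 4.196 and 7.597 CPM in WT control and between 29.2 and 58.8 CPM in KI control. Pdha1 of pyruvate dehydrogenase and the malate dehydrogenase Mdh1 were lower, at -0.90 and -0.89. On the ASK1i diet 7 were lower and 2 higher (8 and 2 without KI ASK1i replicate 5). In WT, the inhibitor diet went with 5 of the 11 higher and none lower, among them Acss2, which makes acetyl-CoA from acetate (1.397, SE 0.25, adjusted p = 0.00217), and the citrate carrier Slc25a1 (0.46, adjusted p = 0.00217). Acss2 rose from a median of 70.6 to 280.2 CPM. With KI ASK1i replicate 5 left out, 8 of the 11 were called higher in WT, and with the L code or numbered titles only none was.

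Of 16 genes for SREBP processing and partner factors, 5 were lower and 2 higher in KI on control chow, the share lower being near that of all genes. The SREBP escort Scap was lower (-0.76, SE 0.11, edgeR adjusted p = 9.21e-07), as were the retinoid receptor Rxra (-0.47) and the coactivator Ppargc1b (-1.23), and the CCAAT-binding subunit Nfya was higher (0.65). Mlx, the dimer partner of ChREBP, was at -0.04 (adjusted p = 0.753) where Mlxipl was at -1.55. On the ASK1i diet 6 were lower and 1 higher (7 and 2 without KI ASK1i replicate 5). In WT the diet went with higher Srebf2 (0.62, adjusted p = 0.000772), which encodes the SREBP of cholesterol synthesis, and higher Insig1 (0.94, adjusted p = 0.0257), while Srebf1 was at 0.01.

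Of 11 genes for glucose and fructose entry and ChREBP targets, 7 were lower in KI on each diet and none higher, beside 28.9% and 28.8% of all genes lower. When KI ASK1i replicate 5 was left out, 8 were lower on control chow and 9 with the inhibitor. The median log2 difference on control chow was -1.19. Among those lower on control chow were Gckr, the regulator of glucokinase (-0.57, SE 0.11, edgeR adjusted p = 8.64e-05), the fructokinase Khk (-1.19) and Dak (-1.26). The summed level of the 11 genes was 4970 to 7623 CPM in WT control and 2279 to 2784 CPM in KI control, with no overlap. None of the 11 was called between diets in WT. KI ASK1i replicate 5 had a sum of 8563 CPM, the highest of all 33 libraries.

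**Figure D5:**
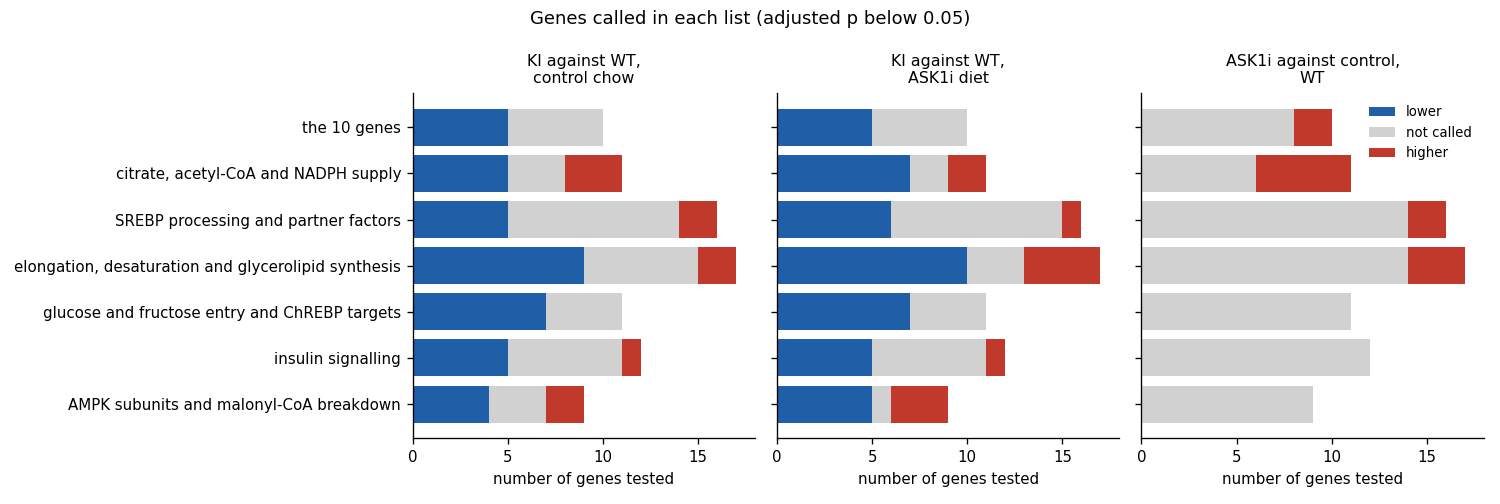
Number of genes called lower (blue), not called (grey) and called higher (red) in the 10 genes and in 6 lists of neighbouring pathways, for both genotype contrasts and the diet contrast in WT. The glucose and fructose list has 7 of 11 lower and none higher in both genotype contrasts, and the supply list has 5 of 11 higher in the WT diet contrast.

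Of 17 genes for elongation, desaturation and glycerolipid synthesis, 9 were lower and 2 higher in KI on control chow, and 10 and 4 on the ASK1i diet. Tecr, the reductase of the elongation cycle, was lower (-0.60, SE 0.10, edgeR adjusted p = 1.29e-05), as was the acyltransferase Mogat1 (-4.13). The 2 that were higher, Elovl1 (1.03), which lengthens very long chains, and the desaturase Scd2 (2.18, SE 0.33), are relatives of Elovl6 and Scd1. In WT the diet went with higher Tecr (0.42), Fads1 (0.62) and Elovl1 (0.42). Of 12 insulin signalling genes, 5 were lower and 1 higher on each diet in the genotype contrast, beside 56.7% and then 59.1% of all genes called: Akt1 was at 0.53, Akt2 at -0.26, Mtor at -0.37 and Tsc1 at -0.42 on control chow. Of 9 genes for AMPK and malonyl-CoA breakdown, 4 were lower and 2 higher on control chow and 5 and 3 on the ASK1i diet, with Mlycd, which breaks malonyl-CoA down, at -0.71 (SE 0.12, adjusted p = 8.23e-06) and the catalytic subunit Prkaa2 at -0.74. The counts of these 3 lists in the genotype contrasts were the same without KI ASK1i replicate 5. Neither the insulin nor the AMPK list had a call in the WT diet contrast, and in KI no gene of the 6 lists was called between diets.

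Markers of other cells moved with genotype. All 11 neutrophil markers tested and all 12 macrophage markers were higher in KI on both diets, with S100a8 at 7.76 and the Kupffer cell marker Clec4f at 1.30 on control chow. Of 11 hepatocyte markers, 7 were lower and 2 higher on control chow and 5 lower and 3 higher on the ASK1i diet, with Alb at -1.54 and -1.23. Fat tissue uses the same synthesis genes. Its 9 markers summed to 117.7 to 958.9 CPM in WT control and 37.03 to 48.9 CPM in KI control, and of the 5 that could be tested 3 were lower (Cidec, Lipe and Car3) and 1 was higher (Fabp4). Among these markers Car3 reached 29472 counts in a library and the next highest, Lipe, at most 897, so the sum leans on Car3. The markers that define fat cells were at or near 0, as no library held more than 4 counts of Adipoq, 2 of Plin1, 13 of Cfd or 4 of Retn. In KI ASK1i replicate 5 the hepatocyte sum was 125200 CPM and the neutrophil sum 11.0 CPM, where the other 9 libraries of its group had 51370 to 86490 and 709.2 to 5056 CPM. The part of these cell markers in the genotype differences was not tested. This holds for the synthesis genes called lower and for the 5 not called on control chow (-0.01 to 0.45).

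Among themselves the 10 genes varied together to different degrees. Over the 33 libraries, with group means removed, Pearson's r of log2 CPM was highest between Acaca and Fasn (0.79) and between Acly and Elovl6 (0.78), and lowest between Acacb and Srebf1 (-0.18). Without KI ASK1i replicate 5 these were 0.83, 0.82 and -0.06, while Fasn and Srebf1 went from 0.54 to 0.79 and Me1 and Srebf1 from -0.003 to 0.34. Sex, title set and cell makeup vary between the libraries of a group and are shared by all genes of a library, so the values are descriptions. The genes most like Fasn in this measure were C78339 (0.83), Txnrd1 (0.83) and Lrrc58 (0.82), those most like Srebf1 were Atp8b1 (0.89), Gpr155 (0.84) and Uhrf1bp1 (0.82), and those most like Mlxipl were AI182371 (0.90), Ugt2b1 (0.87) and Cat (0.87). Without that library the first of each was at 0.81, 0.88 and 0.90, and Ugt2b1 and Cat were at 0.80 and 0.79, ranked 21 and 27. In KI control, replicate 1 was the lowest library for 8 of the 10 genes, all but Acacb and Mlxipl. In WT ASK1i, replicate 2P was the highest for 8, all but Srebf1 and Mlxipl.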

How the data were processed

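Polyadenylated RNA from frozen liver was sequenced from stranded TruSeq mRNA libraries, per the labels' protocols. The submitters' processing notes name CASAVA 1.8.2, STAR 2.4, RSEM 1.2.14 and the build mm10. The strand setting of the counting is not given in the sources used here. Genes on the opposite strand overlap Acaca, Acacb, Elovl6, Me1, Srebf1 and Mlxipl. The authors deposited raw expected counts for each gene, 91.4% to 93.7% of them whole (within 1e-06) in a library. After rounding, the test was edgeR 4.0.16 under R 4.3.3 (TMM, filterByExpr by group, glmQLFit with robust=TRUE, glmQLFTest), in 1 model of 33 libraries with group, sex and title set. P-values were Benjamini-Hochberg adjusted over 14934 genes in each of 6 comparisons, two-sided, threshold 0.05. CPM came from TMM library sizes, with a prior count of 2 for log2 values. DESeq2 1.42.0 and limma 3.58.1 (voom) were alternatives. Genes named were all 10 members, up to 4 called genes with the smallest p in each of 6 pathway lists per comparison, defining cell markers, and the 3 genes most like Fasn, Srebf1 and Mlxipl. Mlx, Plin1, Cfd, Retn, Cidec, Lipe, Car3 and Fabp4 were chosen after their values were seen. Of 132 list entries 129 were in the table. The members and lists were chosen with earlier results of these data known. The fits were tested on simulated counts. 1 gene that this rule names is not reported here.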

Additional observations from a re-analysis of the deposited data

Results flagged for a closer look

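Within each gene and group, the CPM of the highest or lowest library was compared with the rest by Dixon's ratio of the gap to the range. Of 40 gene and group pairs 5 stood out, all at the high end. A chance count of about 2 would need independent pairs and normally distributed values. CPM values can be skewed and the pairs share libraries, so the 5 are not set against that count. Scd1 was 9318 CPM in WT ASK1i replicate 2P and 7294 CPM in KI ASK1i replicate 4P, each far above the other libraries of its group. Elovl6 was 165.8 CPM in WT ASK1i replicate 2P. In KI ASK1i replicate 5 Me1 was 223.4 CPM and Mlxipl 240.8 CPM, both above every other KI library, and in this library Nlrp3 (2.10 CPM) and the summed neutrophil markers (11.0 CPM) lay within the WT control range.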

How the results depend on the processing

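The number of the 10 genes called depended on the covariates and libraries. On control chow, 5 fell in KI in the reported fit, against 3 with group as the only term, with the L code, with numbered titles, with males or with libraries of the first header prefix, and 1 with females, which include 1 KI control library. Leaving out 1 library gave 3 to 5. On the ASK1i diet the 5 became 7 with the L code, 3 with numbered titles, with females or with libraries of the first header prefix, and 4 to 6 with 1 library left out. In WT, the 2 calls between diets became 1 with DESeq2, limma-voom or no low-count filter and 5 with the WT libraries alone. They became 0 with group as the only term, the L code, the header prefix, numbered titles, males, females, libraries of the first header prefix or L6 libraries, and leaving out 1 library gave 0 to 3. Between the sexes, 0 calls became 2 with DESeq2, 1 with limma-voom, 3 with WT libraries and 2 with the header prefix, and 0 to 3 with 1 library left out. The diet contrast in KI and the interaction had 0 calls throughout. With the replicate number as a block in place of the title set, the counts were 4 and 5 in the genotype contrasts and 0 in the diet contrasts, the interaction and the sex contrast. Whether the numbers pair the libraries is not stated. In 14 of 37 same-numbered pairs the deviations from group means correlated above 0.1 (median 0.022, highest 0.361). No values are given for pairs with unlike numbers, so pairing cannot be judged from these. Of 578 alternative values of called genes 0 changed sign, of 2292 of genes not called 198 did, 74 calls were lost and 27 gained. The header prefix, first-prefix, L6, within-sex and ratio settings were chosen after seeing the data. The lowest count of any of the 10 in a library was 361.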
